A study of Homo sapiens with 15 samples.

Results

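The 10 genes followed here belong to the integrated and endoplasmic reticulum stress responses, and were read in every assay of the series: ATF4, XBP1, ASNS, CHAC1, SESN2, DDIT4, TRIB3, PPP1R15A, HERPUD1 and DNAJB9. They were chosen by name, and all 10 were found among the 14432 gene regions of the promoter and RNA tables. The samples were 15 libraries from HEK293T T-Rex cells, a human embryonic kidney line that carries the tetracycline repressor for inducible transgenes. PHC1, a subunit of Polycomb repressive complex 1 (PRC1), was expressed as a transgene under hygromycin and recovered on streptavidin beads. PHC1 PAR-CLIP (2 replicates) mapped the RNA crosslinked to PHC1 after overnight growth in 100 µM 4-thiouridine (4SU). RNA polymerase II (RNAPII) PAR-CLIP, the study's control, used an antibody to the polymerase in cells with no transgene, once with 100 µM 4SU and once with 100 µM 6-thioguanosine (6SG). Total nuclear RNA (2 replicates) and ChIP-seq of RNAPII, H3K4me3, H3K27me3, EZH2 and input (1 library each) came from cells with no transgene and no nucleoside. ChIP-seq of PHC1 and of the mutant labelled PHC1-dFCS (2 replicates each) came from cells carrying those transgenes. No label names a stress treatment, so the values describe these genes in cells not deliberately stressed. The PAR-CLIP cells still grew with 4SU or 6SG and the PHC1 cells under hygromycin. Whether any of these moved the stress genes was not tested. Bound protein, transgene, hygromycin and nucleoside differ together between PHC1 PAR-CLIP and nuclear RNA, and their parts in a difference cannot be told apart. Nothing in the labels ties the replicates to separate cultures, so p-values reflect only how far these libraries lie apart, and that can be technical.

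In the integrated stress response, kinases that sense amino acid shortage, unfolded proteins, viral RNA or haem loss phosphorylate the initiation factor eIF2. General translation then drops while ATF4, a bZIP transcription factor whose messenger carries upstream reading frames, is translated more and switches on genes for amino acid supply, redox balance and feedback. The unfolded protein response of the endoplasmic reticulum feeds the same route through the kinase PERK, and adds the sensors IRE1, which splices the XBP1 messenger into its active form, and ATF6, whose targets are chaperones and degradation factors. Polycomb complexes hold genes silent; H3K27me3, laid down by EZH2, is the mark of that state, and H3K4me3 marks active promoters.

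The cell label was checked in nuclear RNA. VIM had 925 and 890 counts per-million (CPM) in the 2 replicates, CDH2 422 and 425, NEFL 141 and 142, INA 51.6 and 49.3, PAX2 7.42 and 8.36 and NEFM 0.38 and 0.12. Of the markers of other cells, LCP1 had 78.7 and 77.7 CPM, while 11 others of blood, fibroblasts, hepatocytes and keratinocytes were at 1.55 or less and KRT14 had no row. Nuclear RNA libraries held 47187882 and 49626658 reads over gene regions, the single ChIP libraries 32542619 to 43071641 and input 38746623. The PAR-CLIP files list 696186 and 698056 clusters for PHC1 and 667937 for RNAPII with 4SU, against 45259 for RNAPII with 6SG.

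All 10 promoters carried H3K4me3, and at none did H3K27me3 or EZH2 stand clear of input. RNAPII passed 2-fold over input at 9 of the 10, against 18.4% of all 14432 genes, and H3K4me3 at 10 of 10, against 58.0% of all genes. This threshold was set on counts scaled to library size (CPM), with 1 CPM added to target and input. H3K27me3 (0.00693% of all genes past it) and EZH2 (0.0139%) passed it at no stress gene. Since only 1 and 2 genes of the whole table passed for these targets, a single promoter under the threshold says little. CHAC1, ASNS, XBP1 and HERPUD1 promoters hold a stress-response sequence motif in the RefSeq promoter table (GRCh38.p14). They are printed here because they place matches to elements through which ATF4 and ATF6 or XBP1 are known to act. The capitals mark the motif, and each sequence ends at the base before the annotated start.
CHAC1 promoter, chr15:40953221-40953470 on the + strand: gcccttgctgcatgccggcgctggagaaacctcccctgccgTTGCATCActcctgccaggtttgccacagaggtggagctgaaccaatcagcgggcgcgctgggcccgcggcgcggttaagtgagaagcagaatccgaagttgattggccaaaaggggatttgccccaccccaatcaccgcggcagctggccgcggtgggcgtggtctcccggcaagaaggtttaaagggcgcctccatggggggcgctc
ASNS promoter, chr7:97872409-97872558 on the - strand: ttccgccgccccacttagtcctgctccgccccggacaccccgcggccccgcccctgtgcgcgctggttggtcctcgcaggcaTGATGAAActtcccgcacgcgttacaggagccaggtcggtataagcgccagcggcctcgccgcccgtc
XBP1 promoter, chr22:28800570-28800719 on the - strand: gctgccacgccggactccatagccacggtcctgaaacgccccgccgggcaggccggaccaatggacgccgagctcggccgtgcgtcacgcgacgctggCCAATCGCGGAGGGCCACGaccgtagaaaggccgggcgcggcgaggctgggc
HERPUD1 promoter, chr16:56931892-56932141 on the + strand: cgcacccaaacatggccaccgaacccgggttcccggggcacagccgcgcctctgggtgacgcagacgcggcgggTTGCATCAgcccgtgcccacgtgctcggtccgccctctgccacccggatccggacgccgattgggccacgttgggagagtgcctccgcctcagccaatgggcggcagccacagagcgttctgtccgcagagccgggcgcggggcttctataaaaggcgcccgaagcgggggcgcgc
All 10 genes had an entry in that table, and each window of 250 bases before to 50 bases after the start was searched on both strands. TGATGNAA, the core of the C/EBP-ATF response element bound by ATF4 with a C/EBP partner, was found in CHAC1 (on the opposite strand, with its first base at -209 from the start), ASNS (on the gene's strand, at -68) and HERPUD1 (on the opposite strand, at -176). It occurs in 2.66% of the 10969 genes of the series that have such a window. The endoplasmic reticulum stress element, CCAAT followed after 9 bases by CCACG, was found in XBP1 alone among the 10, at -52, and in 0.0912% of these genes. TGACGTGG, the core of the unfolded protein response element, was in no window of the 10 and in 0.921% of these genes. A match is a string of letters and not a measured binding site. Other forms of these elements were not searched, so a window without a match, or without capitals at a place, may still hold one. The chromosome positions of the deposited files are in hg19 and were not converted.

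Both transcription factor genes had promoter polymerase well above the median gene, which stood at 1.88-fold over input. ATF4 (chr22:39916569-39918691, hg19, plus strand, 2.12 kb) had 167 RNAPII reads against 16 of input, which is 12.4-fold over input (95% exact interval 7.43 to 22.2) and above 99.6% of all genes in CPM. XBP1 (chr22:29190548-29196560, minus strand, 6.01 kb) had 126 RNAPII reads against 24, 6.25-fold (4.02 to 10.1). The intervals cover counting error in these single libraries only, and reads without molecular identifiers are not independent molecules.

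Among the genes of amino acid supply and redox balance, RNAPII ranged from 4.58-fold to 8.28-fold over input. ASNS (chr7:97481429-97501854, minus strand), which makes asparagine, had 77 RNAPII reads against 20 of input, 4.58-fold (2.77 to 7.92). CHAC1 (chr15:41245636-41248717, plus strand), a glutathione-degrading enzyme, had 81 reads against 19, 5.08-fold (3.05 to 8.86). SESN2 (chr1:28585963-28609002, plus strand), a leucine-sensing inhibitor of mTORC1 signalling, had 139 against 20, 8.28-fold (5.16 to 14.0).

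The feedback genes spanned nearly the whole range. DDIT4 (chr10:74033677-74035797, plus strand), an inhibitor of mTORC1 also known as REDD1, had 218 RNAPII reads against 23 of input, 11.3-fold (7.33 to 18.2), and exceeded 99.9% of genes in CPM. TRIB3 (chr20:361308-378203, plus strand), a pseudokinase that restrains ATF4 and AKT, had 85 against 22, 4.60-fold (2.85 to 7.72). PPP1R15A (chr19:49375649-49379319, plus strand), the GADD34 subunit that directs phosphatase to eIF2, had 62 against 30, 2.46-fold (1.57 to 3.94). It was the only one of the 10 short of the 2-fold threshold once 1 CPM was added, with a log2 value of 0.71, although 74.1% of genes had fewer RNAPII reads.

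The 2 genes of the endoplasmic reticulum had similar polymerase levels. HERPUD1 (chr16:56966002-56977793, plus strand), a membrane protein of the degradation route for misfolded proteins, had 105 RNAPII reads against 29 of input, 4.31-fold (2.83 to 6.75). DNAJB9 (chr7:108210189-108215294, plus strand), a co-chaperone of BiP also known as ERdj4, had 119 against 28, 5.06-fold (3.33 to 7.94). Their intervals overlap widely, as do those of ASNS, CHAC1 and TRIB3.

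H3K4me3 stood at 7.61-fold (PPP1R15A) to 24.6-fold (ATF4) over input at these promoters, with 251 to 437 reads each. The median over all genes was 6.03-fold, so each of the 10 was above it. H3K27me3 ranged from 0.31-fold (HERPUD1, 10 reads against 29 of input) to 1.01-fold (ATF4, 18 against 16). EZH2 ranged from 0.66-fold (HERPUD1) to 1.41-fold (ATF4), and the interval of every EZH2 value included 1. PPP1R15A, HERPUD1 and DNAJB9 had H3K27me3 intervals wholly below input (upper bounds 0.86, 0.65 and 0.88), and the median of all genes was 0.76-fold.

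**Figure D1:**
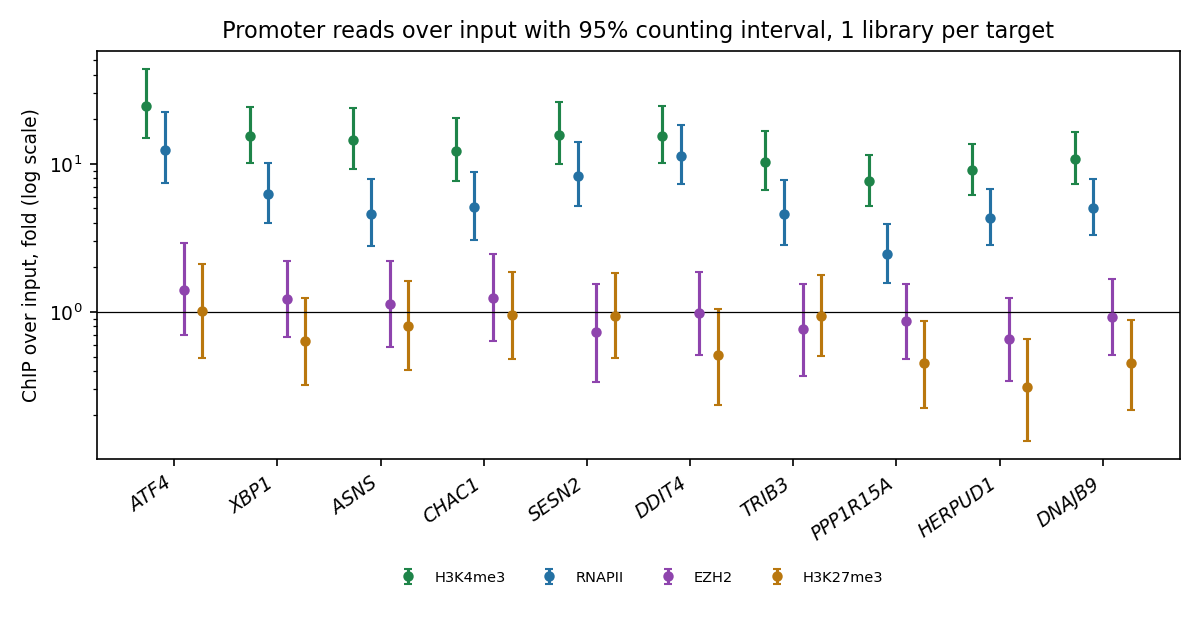
ChIP reads over input at the promoters of the 10 stress genes (fold, log axis), 1 library per target, with bars for the 95% exact counting interval. H3K4me3 (7.61-fold to 24.6-fold) and RNAPII (2.46-fold to 12.4-fold) lie above 1 at every gene, whereas EZH2 and H3K27me3 lie at or below about 1.41-fold.

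PHC1 lay within 1.27 times of input or below it at 9 of the 10 promoters, and higher at ATF4. The authors' table gives 1 joined value per gene for the 2 PHC1 replicates, so there is no replicate spread and no test. In scaled reads before input subtraction (reads per library of 10000000), PHC1 lay between 5.03 (PPP1R15A) and 7.52 (DDIT4), and the median of all genes was 5.85. Relative to input it was highest at ATF4 (1.71 times, where 95% of all genes lay under 1.59), which exceeded 97.1% of genes after input subtraction, and lowest at PPP1R15A (0.65 times). HERPUD1 (0.78 times) and DNAJB9 (0.85 times) were also below input, and the other 6 lay between 1.11 and 1.27 times. Those 3 genes below input have the 3 highest input values of the 10, from 7.23 to 7.74 scaled reads, against 4.13 to 6.19 at the others, and the part of input in the ratio was not tested.

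PHC1-dFCS stood above PHC1 at 9 of the 10 promoters, as it did at most genes. With input added back to the authors' scores, which are joined over replicates, PHC1-dFCS at ATF4 was 11.7 scaled reads against 7.05 for PHC1. The log2 ratio was 0.73 with 0.1 added to both. After input subtraction ATF4 exceeded 99.9% of all genes in PHC1-dFCS. CHAC1 followed with 7.96 against 5.44 (log2 0.54), DDIT4 with 10.4 against 7.52 (0.46), XBP1 with 9.95 against 7.37 (0.43) and TRIB3 with 9.02 against 6.99 (0.36). PPP1R15A (log2 0.29), DNAJB9 (0.24), HERPUD1 (0.16), SESN2 (0.14) and ASNS (-0.03) were nearer to equality. The median log2 ratio was 0.33 for the 10 genes and 0.25 for all genes. By this ratio no stress gene passed 2-fold, against 0.693% of all genes. With the median of all genes subtracted, ASNS, SESN2, HERPUD1 and DNAJB9 lay below 0 (-0.27, -0.11, -0.09 and -0.01) and the other 6 above it, up to 0.48 at ATF4. The ratio keeps input in both terms, which draws it toward 1. Input-subtracted scores of PHC1-dFCS and PHC1 were 7.60 and 2.92 at ATF4, 3.06 and 0.53 at CHAC1, but 0.85 and 0.97 at ASNS. At HERPUD1, DNAJB9 and PPP1R15A the subtracted PHC1 score was negative. The 2-fold count was not taken on subtracted scores, so it depends on this choice.

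**Figure D2:**
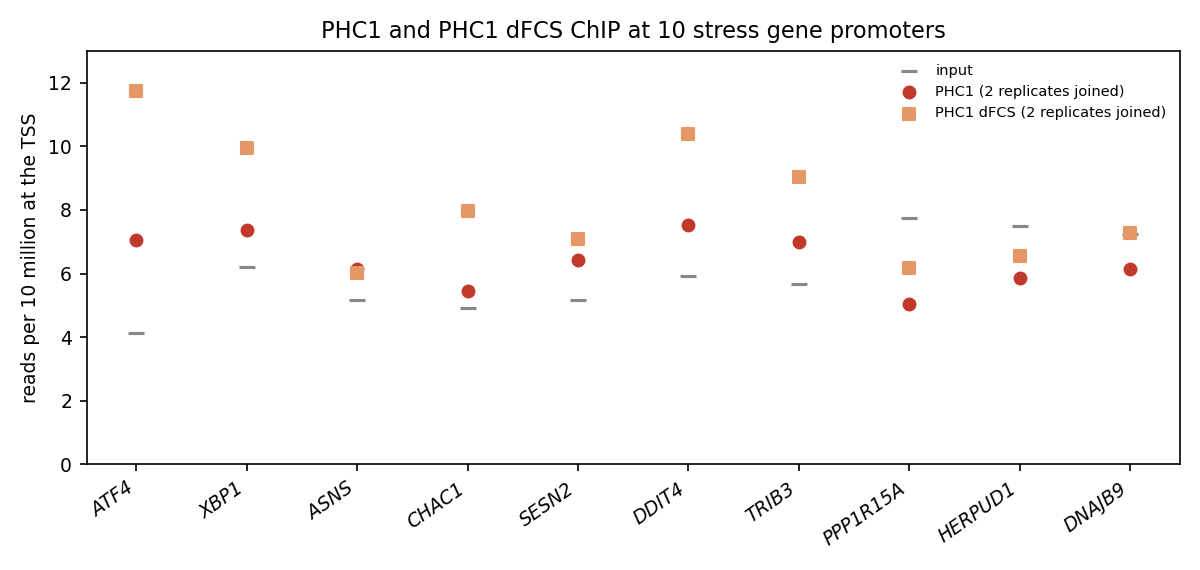
Scaled reads (per library of 10000000) at the transcription start of the 10 stress genes for input (bars), PHC1 (circles) and PHC1-dFCS (squares), the latter 2 joined over replicates by the authors. For PHC1 and PHC1-dFCS input was added back to the authors' scores. The widest gap is at ATF4, where PHC1-dFCS is 11.7 and PHC1 7.05; PPP1R15A and HERPUD1 lie under their input.

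Nuclear RNA of the 10 genes covered more than 2 orders of magnitude on a per-length scale. In CPM per kb of gene region, ATF4 had 144 and 134 in the 2 replicates, above 99.8% of all gene regions. XBP1 had 26.4 and 25.4 and DDIT4 20.4 and 20.1 on the same scale. A middle group was formed by ASNS (7.26 and 7.66), PPP1R15A (6.90 and 7.11) and DNAJB9 (6.35 and 6.01). HERPUD1 (3.94 and 4.13), TRIB3 (3.54 and 3.16) and SESN2 (3.03 and 3.02) were lower. CHAC1 had 0.58 and 0.51, from 85 and 78 reads, a level near the middle of all gene regions (49.5% of them were lower). The replicate ranges of neighbours in this order did not overlap, but the gaps between ASNS and PPP1R15A and between TRIB3 and SESN2 were smaller than the wider replicate range of each pair. Regions include introns, which lowers the per-kb level of long genes such as SESN2 (23.0 kb) and ASNS (20.4 kb) relative to ATF4 and DDIT4. CHAC1 thus combined a promoter with 5.08-fold RNAPII over input and the lowest nuclear RNA of the 10. In these bulk samples, fewer cells expressing a gene and less RNA per cell cannot be told apart.

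PHC1-bound RNA was compared with nuclear RNA to ask which transcripts PHC1 held in excess of their abundance. The quantity is PAR-CLIP coverage summed per gene, or RNA reads per gene, each as CPM of its library after scaling between libraries (TMM), a unit used here for coverage and reads alike; the test is limma on log2 of this value plus 1, with Benjamini-Hochberg adjustment over the 9362 genes tested. The added 1 understates folds of genes at low levels. Of 9 stress genes tested, 4 were higher in PHC1 PAR-CLIP (35.5% of all genes were), 4 were lower (47.1% of all genes were) and 1 did not pass 0.05. These shares lie near those of all genes. The median log2 fold was 0.94 for the 9 and -0.33 for all genes. With library totals alone in place of TMM, the median of all genes was -0.72, with 2579 genes higher and 5148 lower, and 4 stress genes were called in each direction.

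Both transcription factor genes were lower in PHC1 PAR-CLIP than in nuclear RNA. ATF4 had 123 and 106 CPM in the 2 PHC1 replicates against 269 and 251 in the 2 RNA replicates. Its log2 fold was -1.18 ± 0.10 (SE, limma adjusted p = 0.000909). XBP1 had 109 and 104 against 140 and 134, giving a log2 fold of -0.37 ± 0.07 (limma adjusted p = 0.00880). The median of all genes tested was -0.33. XBP1 was thus near the typical gene, above 49.2% of those tested, and ATF4 was above 33.5%. The libraries do not overlap for either gene, but leaving out RNA replicate 1 or 2 took XBP1 out of the called genes (limma adjusted p = 0.179 and 0.109).

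The genes of amino acid supply and nutrient sensing had more PHC1-bound RNA than their abundance. SESN2 had 331 and 315 CPM in PHC1 PAR-CLIP against 61.7 and 61.4 in nuclear RNA, giving a log2 fold of 2.37 ± 0.06 (limma adjusted p = 0.000137). This was a 5.18-fold excess and above 90.4% of the genes tested. ASNS had 281 and 256 against 131 and 138, giving a log2 fold of 0.99 ± 0.08 (limma adjusted p = 0.000651). CHAC1 had 8.36 and 4.82 against 1.59 and 1.38; the PHC1 values were above the RNA values, but the gene did not reach 5 CPM in at least 2 libraries and was not tested. With no such filter its log2 fold was 1.57 (limma adjusted p = 0.0180).

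The feedback genes split. TRIB3 had 104 and 89.2 CPM in PHC1 PAR-CLIP against 52.9 and 47.0 in nuclear RNA, giving a log2 fold of 0.94 ± 0.12 (limma adjusted p = 0.00301). DDIT4 had 24.8 and 15.6 against 38.2 and 37.6, giving a log2 fold of -0.91 ± 0.25 (limma adjusted p = 0.0291), which became 0.0511 when all genes were tested with no filter. Fitted on PHC1 replicate 2 alone the DDIT4 fold was -1.23, and on replicate 1 alone -0.56. PPP1R15A had 73.2 in PHC1 replicate 1 and 27.5 in replicate 2, against 22.4 and 23.0 in nuclear RNA. Both PHC1 values were above both RNA values, but they lay far apart, and the log2 fold of 0.96 ± 0.50 was not called (limma adjusted p = 0.146). For PPP1R15A the same fits gave 0.26 and 1.68.

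The 2 endoplasmic reticulum genes moved in opposite directions. HERPUD1 had 101 and 99.6 CPM in PHC1 PAR-CLIP against 41.0 and 42.9 in nuclear RNA, giving a log2 fold of 1.24 ± 0.08 (limma adjusted p = 0.000373). DNAJB9 had 8.86 and 8.32 against 28.7 and 27.0, giving a log2 fold of -1.59 ± 0.14 (limma adjusted p = 0.000829).

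**Figure D3:**
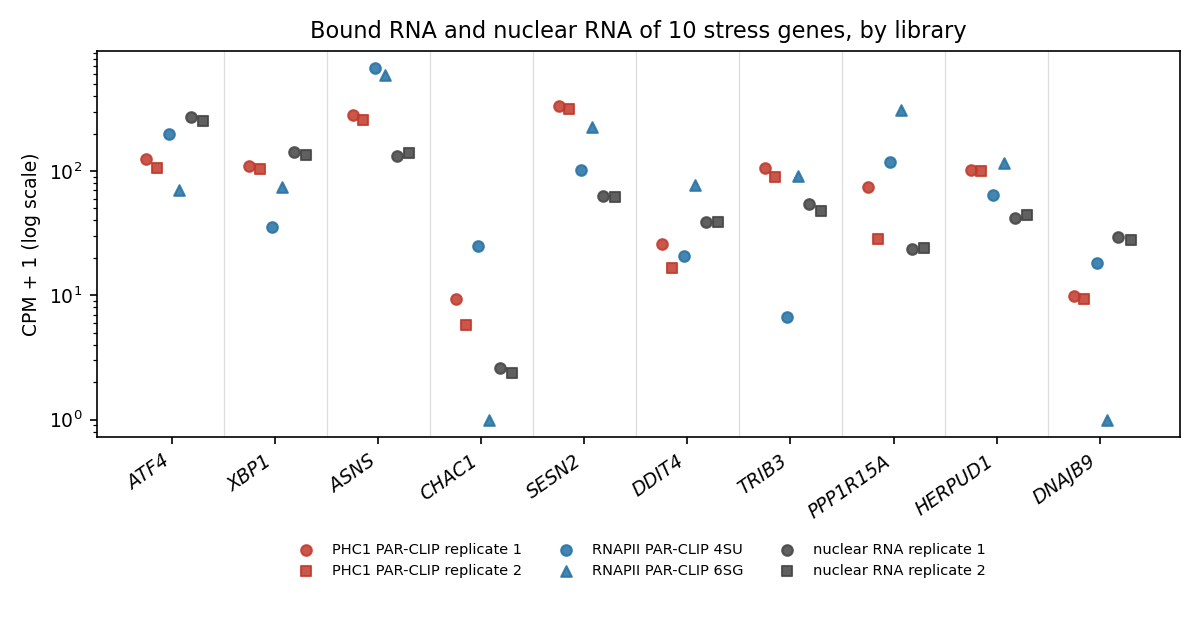
CPM plus 1 (log axis) of the 10 stress genes in the 2 PHC1 PAR-CLIP, 2 RNAPII PAR-CLIP and 2 nuclear RNA libraries; a value of 0 is drawn at 1. SESN2 lies at 331 and 315 in PHC1 PAR-CLIP against 61.7 and 61.4 in RNA, while the RNAPII 4SU and 6SG values of TRIB3 (5.67 and 90.3) stand far apart.

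Gene length moved with these folds. Over all genes tested, the median log2 fold was -2.26 in the shortest of 10 equal bins by length (regions of 1.01 to 6.14 kb), -1.35, -0.69 and -0.25 in the next 3 bins, and between -0.27 and 0.20 in the longer 6. ATF4, DDIT4, XBP1, DNAJB9 and PPP1R15A fall in the shortest bin, HERPUD1 (11.8 kb) and TRIB3 (16.9 kb) in the bin of 11.3 to 17.9 kb, and ASNS (20.4 kb) and SESN2 (23.0 kb) in the bin of 17.9 to 25.3 kb. With the median of its own length bin subtracted, each of the 9 stress genes was above 0. The values were then 0.67 for DNAJB9, 1.08 for ATF4, 1.24 for ASNS, 1.35 for DDIT4, 1.63 for TRIB3, 1.89 for XBP1, 1.93 for HERPUD1, 2.62 for SESN2 and 3.22 for PPP1R15A. So ATF4, DDIT4, XBP1 and DNAJB9, called lower against their RNA, lay above the median of their length bin. XBP1 (6.01 kb) is near the upper edge of its bin, and the next bin has a median of -1.35 in place of -2.26. Over all genes 50.0% lie above the median of their bin. The bins were not matched for RNA level. ATF4, XBP1, DDIT4 and DNAJB9 had more nuclear RNA per kb than 99.8%, 97.9%, 97.0% and 88.8% of all gene regions. The subtraction is a description with no test, and why length moves with the fold was not tested.

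**Figure D4:**
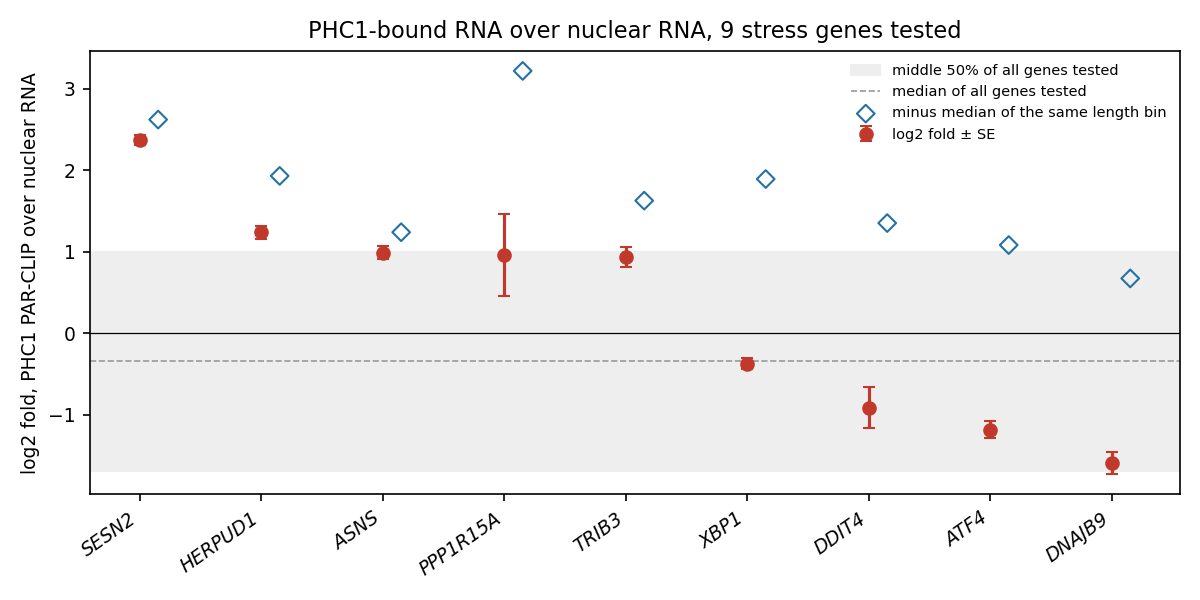
Log2 fold of PHC1 PAR-CLIP over nuclear RNA for the 9 stress genes tested (circles, ± SE) and the same value minus the median of all genes in its length bin (diamonds). The circles run from 2.37 (SESN2) to -1.59 (DNAJB9), and every diamond is above 0; the band and dashed line give the middle 50% and the median of all genes.

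Polymerase-bound RNA was compared with the same 2 nuclear RNA libraries. No gene of 8744 was called with both RNAPII libraries in the fit (0.0%), and 997 genes were higher and 1083 lower at an unadjusted limma p under 0.05. The RNAPII pair differs in nucleoside and in depth (45259 clusters with 6SG), and its values for the stress genes were often far apart, so a difference of this kind was not detectable for most of them. ASNS came nearest to the threshold, with 671 (4SU) and 588 (6SG) CPM against 134 and 143 in nuclear RNA, giving a log2 fold of 2.17 ± 0.22 (limma adjusted p = 0.0878). With no filter on low values ASNS was called (limma adjusted p = 0.0246). PPP1R15A had 117 and 309 against 23.0 and 23.8, giving a log2 fold of 2.97 ± 0.60 (limma adjusted p = 0.130). For both genes each RNAPII library was above each RNA library.

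SESN2 had 102 (4SU) and 225 (6SG) CPM in RNAPII PAR-CLIP against 63.3 and 63.5 in RNA, and HERPUD1 63.1 and 115 against 42.1 and 44.4. These 2 genes were also above RNA in both libraries (log2 folds 1.24 and 0.96). The values sum both strands, and 1 cluster of 13 bases on the opposite strand held 19.4% of the SESN2 coverage with 6SG. XBP1, with 34.6 and 74.0 against 144 and 139, and ATF4, with 198 and 70.0 against 276 and 260, were below RNA in both (log2 folds -1.46 and -1.18). The RNAPII libraries fell on either side of nuclear RNA for 2 feedback genes. TRIB3 had 5.67 with 4SU and 90.3 with 6SG against 54.2 and 48.7, and DDIT4 had 19.9 and 75.9 against 39.2 and 38.9. DNAJB9 and CHAC1 had 17.1 and 23.8 CPM with 4SU and no cluster with 6SG, where they are listed at 0. CHAC1 had 1.63 and 1.43 CPM of nuclear RNA on this scale.

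Set directly against RNAPII PAR-CLIP, PHC1 PAR-CLIP again gave no called gene of 8435 with both RNAPII libraries (0.0%, with 1195 higher and 648 lower at an unadjusted limma p under 0.05). The log2 folds of the 10 stress genes ran from -1.85 (PPP1R15A) and -1.02 (ASNS) to 1.29 (SESN2) and 2.17 (TRIB3). Their limma adjusted p-values were 0.178 or more, and their median of 0.54 was near the 0.60 of all genes. Against the 4SU library alone, which shares the nucleoside of the PHC1 libraries, 4 stress genes were higher (33.7% of all genes were) and 3 lower (28.0% of all genes were). With 1 RNAPII library left, this fit takes its variance from the 2 PHC1 libraries. TRIB3 was the highest, at a log2 fold of 4.01, followed by SESN2 (1.85), XBP1 (1.77) and HERPUD1 (0.85). CHAC1 (-1.55), ASNS (-1.12) and ATF4 (-0.59) were lower in PHC1 than in RNAPII 4SU. PPP1R15A (-1.16), DNAJB9 (-0.73) and DDIT4 (0.17) did not pass the test. With the 6SG library alone, ATF4 (0.89), DNAJB9 (3.18) and DDIT4 (-1.70) had the opposite sign to the 4SU fit. DNAJB9 had no 6SG cluster, so its sign and size there rest on the 1 added to a value of 0. TRIB3 was at 0.28 and HERPUD1 at -0.001 in that fit.

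The positions of the clusters gave a map of bound RNA along each gene (hg19). The 10 genes held 285 PHC1 clusters in replicate 1 and 294 in replicate 2, 283 RNAPII clusters with 4SU and 43 with 6SG. Of the replicate 1 clusters 73.7% met a replicate 2 cluster on the same strand by at least 1 base, and of the replicate 2 clusters 87.1% met one of replicate 1. With RNAPII 4SU clusters the shares were 44.2% and 48.0%. These shares were not computed over all clusters, so they cannot be read as a trait of the 10 genes. Nearly all clusters lay on the strand of the gene, with 1 and 3 on the opposite strand in the PHC1 replicates. Over all genes with at least 10 clusters, the median share of PHC1 coverage on the gene's strand was 97.8% and 98.0%.

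PHC1 covered SESN2 with 83 and 88 clusters over 19.4% and 16.8% of its region. Each gene region was split into 3 equal segments from its start. The first segment of SESN2 held 51.2% and 52.1% of the sense coverage in the 2 replicates, against a median of 24.8% and 25.0% over genes under 25 kb with at least 10 clusters. Its last segment held 30.3% and 35.3% of the coverage, in more clusters (35 and 38, against 23 and 28 in the first). Its largest PHC1 cluster was at chr1:28589167-28589469 in replicate 1 and chr1:28589268-28589355 in replicate 2, both about 3.35 kb from the start. RNAPII with 4SU had 24.7% in the first segment and its largest cluster at chr1:28600591-28600633, 14.6 kb from the start.

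TRIB3 carried 34 and 32 PHC1 clusters but 7 of RNAPII with 4SU. Of the PHC1 clusters 3 and 2 met a 4SU cluster, whereas 23 of 34 and 28 of 32 met the other PHC1 replicate. Such shares were not computed over all genes. The largest PHC1 cluster of replicate 1, chr20:367714-367956 with a mean coverage of 53.4 per base, was 6.53 kb from the start. In replicate 2 the largest, chr20:367858-367948 with 80.1 per base, lay within it.

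On HERPUD1 the last segment held 84.9% and 89.1% of the PHC1 sense coverage and 65.0% of that of RNAPII with 4SU. RNAPII with 6SG, in 4 clusters, had 59.4% in the first segment and 40.6% in the last. The medians of short genes were 36.4% and 35.5% for PHC1 and 37.7% for RNAPII 4SU. A cluster 8.78 kb from the start was shared by the replicates at chr16:56974753-56974816 and chr16:56974756-56974813. HERPUD1 also had 1 PHC1 cluster on the opposite strand in each replicate, chr16:56974286-56974364 and chr16:56974314-56974338, with 20.1% and 12.7% of the gene's coverage. In each replicate it overlapped a sense cluster, chr16:56974253-56974461 and chr16:56974308-56974338. RNAPII had none there with either nucleoside.

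In ASNS the PHC1 coverage was 38.0% and 37.0% in the first segment, 24.3% and 27.9% in the middle and 37.8% and 35.2% in the last. Its strongest PHC1 clusters, chr7:97499487-97499553 and chr7:97499523-97499606, were 2.33 and 2.29 kb from the start. RNAPII with 4SU had 63.3% of its coverage in the last segment and its strongest cluster 13.6 kb from the start, with a mean of 557 per base.

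On CHAC1 most coverage of the 2 proteins lay toward opposite ends of the gene. RNAPII with 4SU had 6 clusters, 3 in the first segment and 3 in the last, with 87.7% of its coverage in 1 cluster of 31 bases at chr15:41245695-41245725, 74 bases from the start, with a mean of 364 per base. PHC1 had no cluster there, and its 10 and 5 clusters placed 73.2% and 100.0% of their coverage in the last segment, at a mean of 14.1 and 11.1 per base. DNAJB9 had 10 and 8 PHC1 clusters over 4.62% and 4.82% of its region, with 71.0% and 63.2% of the coverage in the last segment. Its largest PHC1 cluster began at the same base in both replicates, at chr7:108214738-108214778 and chr7:108214738-108214763.

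ATF4, DDIT4, XBP1 and PPP1R15A are short and densely covered. PHC1 clusters took up 56.5% and 46.5% of the ATF4 region, against a median of 0.90% in both replicates over genes with RNA. That median takes genes of any length and was not matched to ATF4 for length or RNA level. One cluster of 838 bases held 76.8% of the ATF4 coverage in replicate 1; in replicate 2 a cluster with the same start and 344 bases held 61.2%. Its RNAPII 4SU coverage was split over 24 clusters, none above 16.3%. PPP1R15A had a PHC1 cluster of 619 bases with 62.9% of its coverage in replicate 1, whereas in replicate 2 the largest was 72 bases with 14.8%. This is the gene whose 2 PHC1 values lay farthest apart, and how clusters were joined in each file was not tested. XBP1 had a PHC1 cluster 2.24 kb from the start in both replicates, chr22:29194298-29194348 and chr22:29194304-29194345, with mean coverage of 111 and 230 per base. In DDIT4, 62.4% of the RNAPII 4SU coverage lay in the first segment, against 38.2% and 24.3% of the PHC1 coverage.

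**Figure D5:**
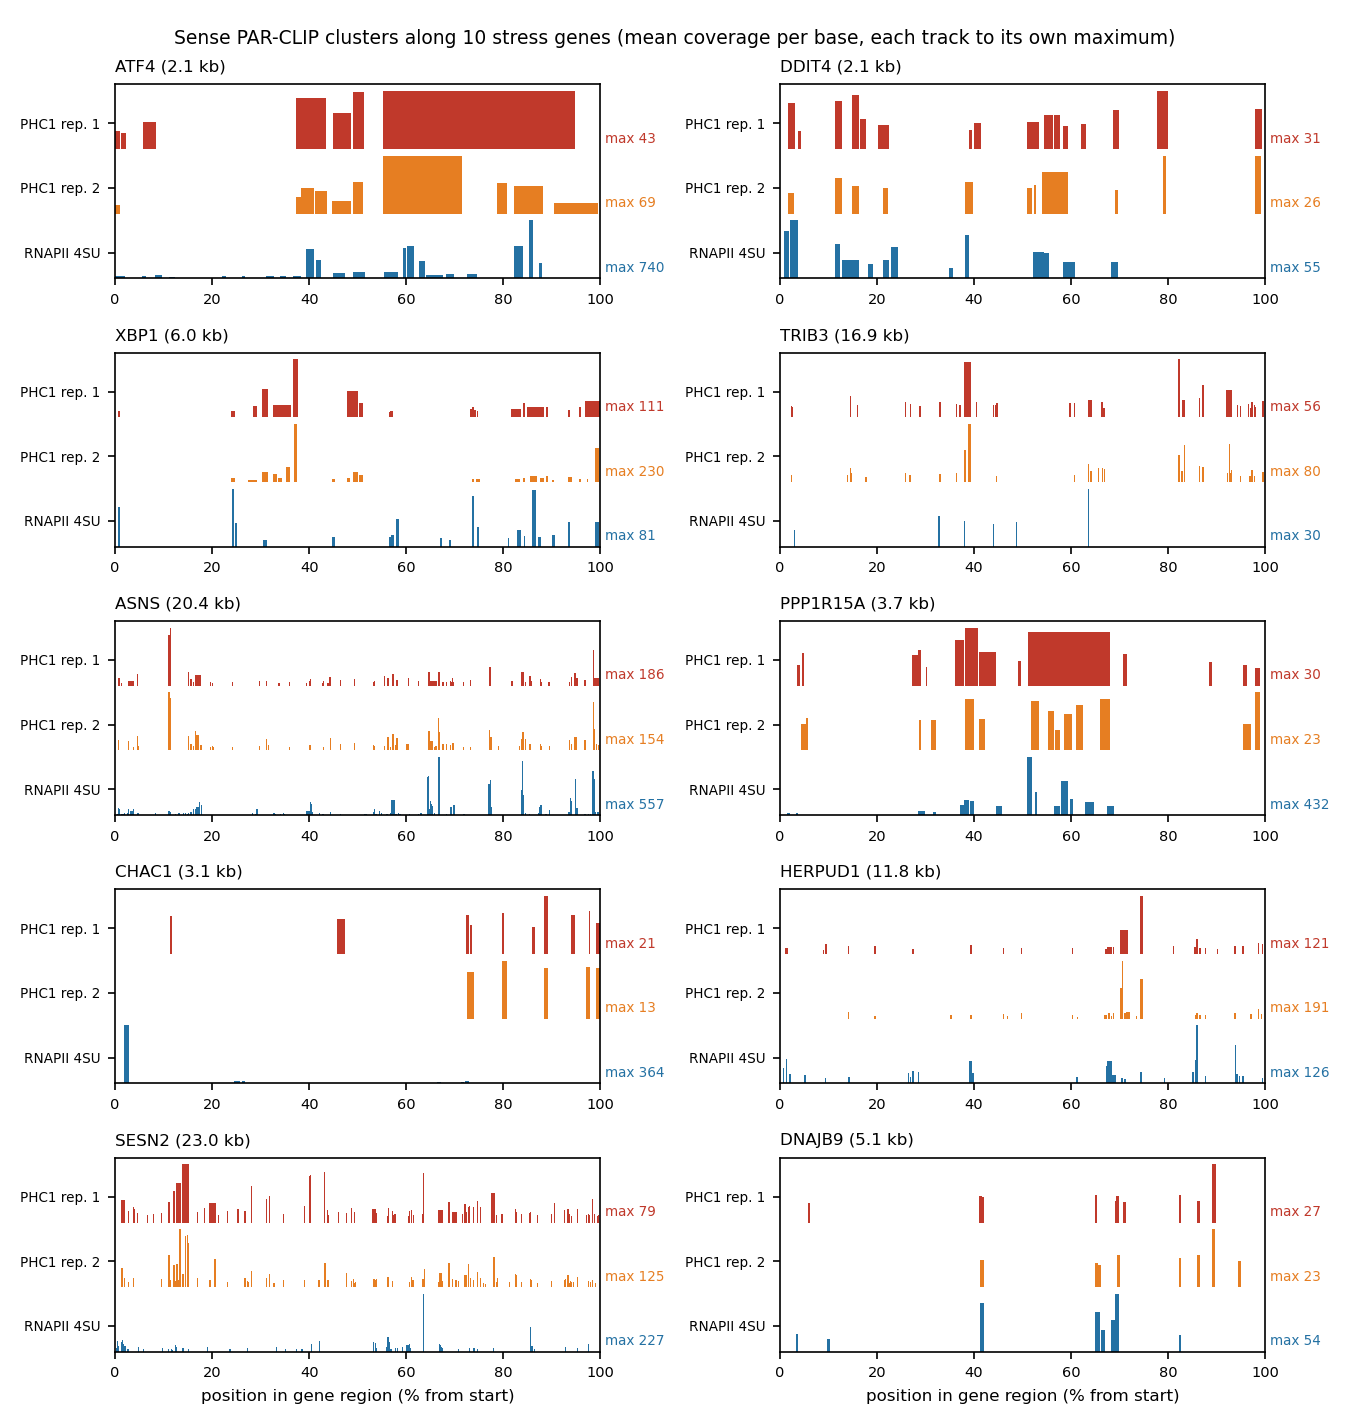
Sense PAR-CLIP clusters along the 10 stress genes, as percent of the gene region from its start; bar width is cluster width, bar height the mean coverage per base scaled to the maximum of each track, which is printed beside it. The first segment of SESN2 holds 51.2% and 52.1% of its PHC1 coverage, the largest PHC1 clusters of HERPUD1 lie past 70% of the region, and 1 RNAPII 4SU cluster on CHAC1, 2.4% from the start, holds 87.7% of the coverage.

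The wider stress pathways were read from 3 lists. Of 23 further ATF4 targets and partners, 14 were tested in PHC1 PAR-CLIP against nuclear RNA: 8 were higher (35.5% of all genes were), none lower (47.1% of all genes were) and 6 did not pass, with a median log2 fold of 1.14. With library totals alone 4 were lower, and without PHC1 replicate 1 there were 3 lower, so the absence of lower genes does not hold under every setting. Without PHC1 replicate 2 the count higher was 12. PSAT1, an enzyme of serine synthesis, was at 2.65 ± 0.08 (limma adjusted p = 0.000137), with 727 and 672 CPM against 106 and 116. AARS1, the alanyl-tRNA synthetase, was at 2.55 ± 0.05 (limma adjusted p = 0.000137), with 944 and 927 against 158 and 161. Of 23 XBP1 and ATF6 targets, 17 were tested and all 17 were lower (47.1% of all genes were), with a median of -2.14. The count was 12 without RNA replicate 1 and 11 without RNA replicate 2. CRELD2 (-4.36) and SDF2L1 (-4.27), both endoplasmic reticulum proteins, had the lowest fitted folds. CRELD2 had 0.74 and 2.07 CPM in PHC1 PAR-CLIP against 48.1 and 44.9 in RNA, and SDF2L1 had 0.62 and 0 against 23.9 and 23.2. Both passed the filter on low values only through their RNA, so a difference was built into their being tested, and their folds depend on the 1 added. Any gene can pass that filter through its 2 RNA libraries alone, which is not possible once 1 of them is left out. How many of the other genes on this list passed in that way was not counted, so the count of lower genes carries the same limit. Of the 2 endoplasmic reticulum genes, HERPUD1 (1.24) had the opposite sign to these 17 and DNAJB9 (-1.59) the same sign.

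Of 17 stress sensors and eIF2 factors, 13 were tested: 2 were higher, 9 lower and 2 did not pass, with a median of -0.79, beside 35.5% of all genes higher and 47.1% lower. Without PHC1 replicate 2, 4 were higher. EIF2B3 (1.62) and ATF6 (1.13) were higher, and EIF2B5 (-1.86) and EIF2AK4 (-1.77), which encodes the amino acid sensor GCN2, were the lowest. After subtraction of the length-bin median, 12 of 14 ATF4 targets, 2 of 17 XBP1 and ATF6 targets and 5 of 13 sensors lay above 0, beside the 9 of 9 stress genes. The lists were not tested against each other. No gene of the 3 lists was called in the other 2 comparisons with both RNAPII libraries. As 0.0% of all genes were called there, this says nothing of the lists. RNAPII ChIP passed 2-fold at 7 of 15 ATF4 targets, 9 of 17 XBP1 and ATF6 targets and 5 of 13 sensors with a promoter value, beside 9 of the 10 stress genes and 18.4% of all genes.

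The genes with the profiles nearest to the extremes of the stress genes were found by Euclidean distance on log2 of CPM plus 1 over the 4 PAR-CLIP and 2 RNA libraries. For SESN2 they were CBFA2T2 (distance 0.53), GUSB (0.58) and KAT8 (0.60). For DNAJB9 they were PIM1 (0.25), FAM72D (0.32) and KLF6 (0.42), all of them listed at 0 in RNAPII PAR-CLIP with 6SG.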

How the data were processed

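PAR-CLIP, nuclear RNA-seq and ChIP-seq libraries (15 samples) were grouped by their titles. Per the submitters' processing notes the build was hg19 and the tools were Bowtie 0.12.7 (PAR-CLIP), TopHat2 2.0.11 (RNA), Bowtie2 2.2.3 (ChIP), SAMtools 0.1.19 and R; the cluster caller, RNA counter and window around the transcription start are not given in the sources used here. The deposited RNA table holds raw counts per gene region. The deposited PAR-CLIP lists give a coverage signal, the mean per base of each cluster; coverage times width was a whole number for 100.0% of clusters. The deposited ChIP score is reads scaled to a library of 10000000 minus scaled input; whole reads within 1e-08 were recovered for all values of the single libraries. The planned edgeR test of PHC1 replicates was replaced by a ratio, since the authors joined them. One deposited value column was not used.

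Clusters were given to the gene region whose nearest start lies at or before their midpoint and which reaches it, and coverage was summed per gene. Clusters on both strands entered this sum. Summed coverage and RNA counts were scaled by TMM (edgeR 4.0.16) within each comparison, so a library's values differ between comparisons by a constant factor. limma 3.58.1 (trend, robust, two-sided) was run on log2(CPM + 1) for genes with at least 5 CPM in at least 2 libraries, with Benjamini-Hochberg adjustment over all genes tested and a threshold of 0.05, after being tested on simulated data. Cluster coverage counts crosslinked reads, while RNA counts do not depend on crosslinking. ChIP folds over input carry exact conditional 95% intervals. Gene strands and promoters came from RefSeq (GRCh38.p14). Alternatives covered scaling, pseudocount, filter, each library left out, a replicate block, length, cluster assignment and cluster numbers (edgeR and DESeq2 1.42.0). The 10 genes, the wider lists, the motifs and the tests were chosen with earlier results of these data known. By the naming rule all 10 genes are named, with the 2 highest and 2 lowest called genes of each wider list and the 3 nearest profiles of the extreme genes.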

Additional observations from a re-analysis of the deposited data

How the results depend on the processing

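In PHC1 PAR-CLIP against nuclear RNA, the stress genes called higher ranged from 4 to 5 and those called lower from 3 to 4 when each library was left out, and the genes lower overall from 2779 (without RNA replicate 1) to 5097, with 2780 without RNA replicate 2. The direction of the 9 stress genes turned under no alternative but one: minus the median of the length bin, ATF4 was at 1.08, DDIT4 at 1.35, XBP1 at 1.89 and DNAJB9 at 0.67, and the cause was not tested. The 2 replicate numbers did not pair the samples (correlation of deviations 0.04). With the replicate number as a block, 3255 genes were higher and 4423 lower, and PPP1R15A was called at the same 0.96 (limma adjusted p = 0.0430), which says nothing of a stronger effect. Counting every region that holds a cluster's midpoint changed no count of calls.

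Both comparisons with RNAPII PAR-CLIP depend on which RNAPII library is used. Against nuclear RNA, leaving out 1 library in turn gave 8 to 3459 genes higher and 2 to 5765 lower, with 0 to 6 stress genes higher and 0 to 5 lower. The 4SU library alone gave 3459 higher and 4358 lower, with 4 stress genes higher and 5 lower; leaving out 4SU gave 6 and 3. The 5765 genes lower belong to the fit without 4SU. Both of these fits hold 1 RNAPII library and take their variance from the 2 RNA libraries. Each called every stress gene tested, but also most of all genes tested. Their counts therefore do not set the stress genes apart from other genes. With both RNAPII libraries and no filter on low values 178 genes were higher and 1267 lower, with 1 stress gene higher. DDIT4 turned to -0.27 with library totals alone and to -0.94 with 4SU alone, and the leave-one-out range was -0.94 to 0.78 for DDIT4 and -2.98 to 0.64 for TRIB3.

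For PHC1 against RNAPII PAR-CLIP, leaving out 1 library gave 0 to 4333 genes higher and 0 to 2248 lower, with 0 to 4 stress genes higher and 0 to 3 lower. The 4SU library alone gave 2707 higher and 2248 lower, with 4 and 3 stress genes, and ATF4 at -0.59, DDIT4 at 0.17, CHAC1 at -1.55 and DNAJB9 at -0.73. Library totals alone put ATF4 at -0.088. Cluster numbers gave 1419 genes higher and 1229 lower with edgeR, with 1 stress gene each way (TRIB3 higher, ATF4 at -1.37 lower) and DDIT4 at 0.036. DESeq2 on the same numbers called 2 genes higher and 2 lower, with ATF4 at -1.59 and HERPUD1 at -0.15. Leave-one-out ranges were -0.59 to 0.89 for ATF4, -1.70 to 0.17 for DDIT4, -0.73 to 3.18 for DNAJB9, -1.55 to 0.99 for CHAC1 and -0.001 to 0.85 for HERPUD1. In each case the cause was not tested.

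At promoters, subtracting the median of all genes took the median log2 ratio of PHC1-dFCS over PHC1 from 0.33 to 0.082, and no stress gene passed 2-fold under either alternative. These ratios all keep input in both terms, and the input-subtracted scores were not put to this threshold. With 0.25 CPM added, or at 1.5-fold, RNAPII passed at all 10 genes. The 10 to 30 reads behind each H3K27me3, EZH2 and input value limit what those folds can resolve.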
